A study of Mus musculus with 12 samples.

Results

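Triglyceride synthesis and the assembly of very low density lipoprotein (VLDL) were followed in mouse liver through 10 genes, enzymes of each step and proteins that load lipid onto VLDL. They were chosen by name, with earlier results of these data known, and other enzymes of these steps are given below as a list. The 10 are Gpam, Gpat4, Agpat2, Agpat3, Lpin1, Lpin2, Dgat1, Dgat2, Mttp and Tm6sf2, of the 19252 genes in the gene table. All 10 passed the filter on low values, at least 1 TPM in at least 4 of 12 libraries. The animals were C57BL/6 mice in 3 groups of 4 liver libraries. NAC_HFD mice ate a high fat diet and drank water with 2 g of N-acetylcysteine per litre, HFD mice ate the same diet without N-acetylcysteine, and NFD mice ate a normal fat diet. N-acetylcysteine is a cysteine precursor that raises glutathione. The labels give 14 weeks of feeding and an age of 8 weeks for all 3 groups, without saying when the age was taken. Values are TPM, a length-corrected share of the transcripts in a library, so levels of different genes can be compared.

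The liver makes triglyceride by adding acyl chains to glycerol 3-phosphate in a fixed order. Glycerol-3-phosphate acyltransferases (GPATs) add the first chain and acylglycerophosphate acyltransferases (AGPATs) the next, which gives phosphatidic acid. Lipins remove its phosphate to give diacylglycerol, and diacylglycerol acyltransferases (DGATs) add the last chain. The product is stored in lipid droplets or loaded by microsomal triglyceride transfer protein onto apolipoprotein B, and the particle leaves the cell as VLDL.

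The largest log2 fold change in each comparison lay in a lipin gene, so the bases before their starts are shown here, as given by RefSeq for build GRCm38.p6. Each sequence is the 250 bases before a listed start, read 5′ to 3′ on the strand of the gene, and capitals mark the motif found in it. Lpin1 (chr12:16610967-16611216, minus strand) holds AGGTCA, the core sequence read by many nuclear receptors, whose first base lies 74 bases before the start. That stretch lies inside the Lpin1 gene (chr12:16535669-16653903), so this listed start is an internal one. Lpin2 has 3 listed starts. The bases before the start listed as Lpin2 entry 1 (chr17:71183282-71183531, plus strand) hold the E-box CACGTG, 9 bases before the start. Those before Lpin2 entry 3 (chr17:71204404-71204653, plus strand) hold GTAAACA, a sequence read by forkhead factors, 138 bases before the start. Entry 3 is likewise an internal start, inside the Lpin2 gene (chr17:71183532-71249818).
Lpin1: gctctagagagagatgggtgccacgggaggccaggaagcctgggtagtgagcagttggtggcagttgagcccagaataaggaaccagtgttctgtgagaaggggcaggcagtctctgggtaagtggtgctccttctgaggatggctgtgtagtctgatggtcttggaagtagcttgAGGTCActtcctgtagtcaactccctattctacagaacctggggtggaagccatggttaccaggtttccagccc
Lpin2 entry 1: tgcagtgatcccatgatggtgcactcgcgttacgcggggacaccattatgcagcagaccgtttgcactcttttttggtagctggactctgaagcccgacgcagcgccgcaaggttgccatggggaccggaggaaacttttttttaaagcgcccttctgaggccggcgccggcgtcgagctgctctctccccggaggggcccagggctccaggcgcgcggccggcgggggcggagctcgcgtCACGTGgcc
Lpin2 entry 3: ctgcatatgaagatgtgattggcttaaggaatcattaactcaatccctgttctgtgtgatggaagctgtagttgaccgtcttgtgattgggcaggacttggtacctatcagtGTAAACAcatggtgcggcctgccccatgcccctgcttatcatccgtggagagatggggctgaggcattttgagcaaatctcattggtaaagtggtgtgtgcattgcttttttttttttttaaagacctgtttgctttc
Both strands were searched for these 3 motifs and for TGACGTCA, the cyclic AMP response element. Of 32851 mouse promoters of the same length, 14% hold AGGTCA, 6.02% CACGTG, 3.17% GTAAACA and 1.55% TGACGTCA. RefSeq entries were found for 6 of the 10 genes (9 entries), and 4 entries hold a motif. The fourth is Gpam entry 2, with AGGTCA 196 bases before its start, which also lies inside the gene. These matches describe letters and not binding.

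Read depth is unknown, because TPM keeps no counts. Between 10864 and 11316 genes per library reached 1 TPM, and any 2 libraries correlated across genes with r between 0.964 and 0.991. The 10 hepatocyte markers summed to 60611 to 79367 TPM in NAC_HFD, 56884 to 72735 TPM in HFD and 59064 to 67620 TPM in NFD, and all 10 were detected in every library, so the marker check fits the label liver. Kupffer cell markers summed to 74.7 to 147 TPM in NAC_HFD, 108 to 271 TPM in HFD and 80.9 to 153 TPM in NFD. Adipocyte markers summed to 9.65 to 12.5, 16.9 to 44.96 and 9.42 to 14.4 TPM in these groups. The fat cell genes Adipoq and Plin1 were at or under 0.27 TPM in every library, and the highest HFD sum, in HFD 4, was mostly Cfd (32.7 TPM). Cfd was at 4.74 to 32.7 TPM in HFD and at most 1.75 TPM in the other groups, while Fabp4 and Lipe overlapped between groups. In whole liver, fewer cells of a type and less RNA per cell cannot be told apart.

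Dgat2, the main DGAT of liver, was the most abundant of the 10 genes over all libraries, and Dgat1 the least. In NAC_HFD the order was Lpin1 (280 TPM on average), Dgat2 (218), Lpin2 (189), Mttp (102), Gpat4 (86.5), Agpat3 (83.4), Agpat2 (69.4), Gpam (48.8), Tm6sf2 (15.5) and Dgat1 (6.845). Lpin1 had rank 3 in HFD (122 TPM) and rank 5 in NFD (89.9 TPM). In NAC_HFD the library ranges of neighbours in this order overlapped as far down as Gpam. Tm6sf2 lay below Gpam, and Dgat1 below Tm6sf2, without overlap. Summed over the 10 genes, the level was 1100.2 ± 141 TPM in NAC_HFD, 931 ± 83.2 TPM in HFD and 784 ± 81.3 TPM in NFD (SD, n = 4 each). Much of the gap between NAC_HFD and HFD lay in Lpin1, with means of 280 and 122 TPM. The NAC_HFD sum also holds 210.3 TPM of noncoding Lpin2 transcripts in NAC_HFD 3. All these values include transcripts that the deposited tables class as lncRNA. In mRNA sums, looked at after the data were seen, the NAC_HFD order was different. Dgat2 averaged 211 TPM there, Lpin1 192, Mttp 102 and Lpin2 97.0. Gpat4, at 41.8 TPM, lay below Agpat3 (79.8), Agpat2 (69.4) and Gpam (48.8) in these mean mRNA sums.

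**Figure D1:**
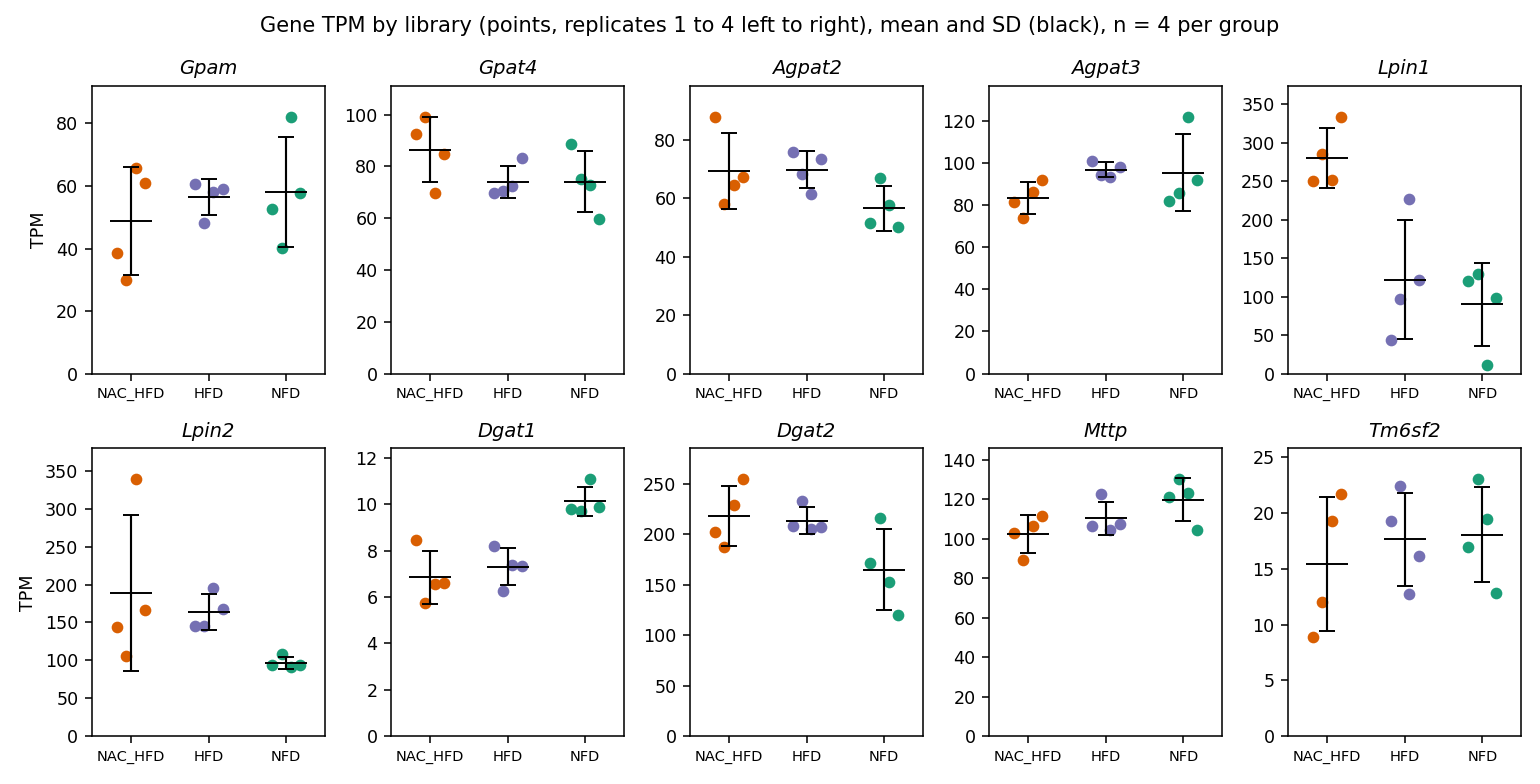
TPM of the 10 genes, a panel each, with a point per library and the mean ± SD of each group (4 libraries), NAC_HFD, HFD and NFD from left to right. Lpin1 sits at 250.4 to 334 TPM in NAC_HFD, above every HFD and NFD library, and Dgat1 in NFD sits above every library of the other groups.

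The study asks what the diet does to liver RNA and what N-acetylcysteine does on that diet. Each comparison below is a limma contrast on log2(TPM + 1) fitted over all 12 libraries, with p adjusted over 11376 genes by Benjamini and Hochberg and a threshold of 0.05. The p-values measure the spread between these samples, since the labels do not say that each library is another animal. The 3 comparisons share libraries: HFD enters both HFD minus NFD and NAC_HFD minus HFD, NAC_HFD both of its comparisons, and NFD the other pair.

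For HFD against NFD, none of the 10 genes passed, beside 2.78% of all genes. Unadjusted p was under 0.05 for 4 of the 10, beside 19.1% of all genes. The groups did not overlap for 2 genes, Lpin2 (higher) and Dgat1 (lower), beside 12.4% of all genes (7.78% higher and 4.57% lower). The median log2 fold change of the 10 was 0.02, and 0.01 over all genes.

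For NAC_HFD against HFD, none of the 10 passed, beside 0% of all genes. No unadjusted p of the 10 was under 0.05, beside 16.4% of all genes. Lpin1 (higher) and Agpat3 (lower) did not overlap, beside 10.2% of all genes. Only 1.56% of genes were higher without overlap, the class that holds Lpin1, and 8.66% were lower. The median log2 fold change of the 10 was -0.05, and -0.08 over all genes.

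For NAC_HFD against NFD, Dgat1 alone passed, as lower, beside 5.28% of all genes in either direction. Unadjusted p was under 0.05 for 5 of the 10, beside 22.6% of all genes. Lpin1 (higher) and Dgat1 (lower) did not overlap, beside 12% of all genes (3.52% higher and 8.52% lower). The median was 0.02 for the 10 and -0.07 over all genes. With 10 genes, counts of 0 and 1 called are close to the share over all genes.

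**Figure D2:**
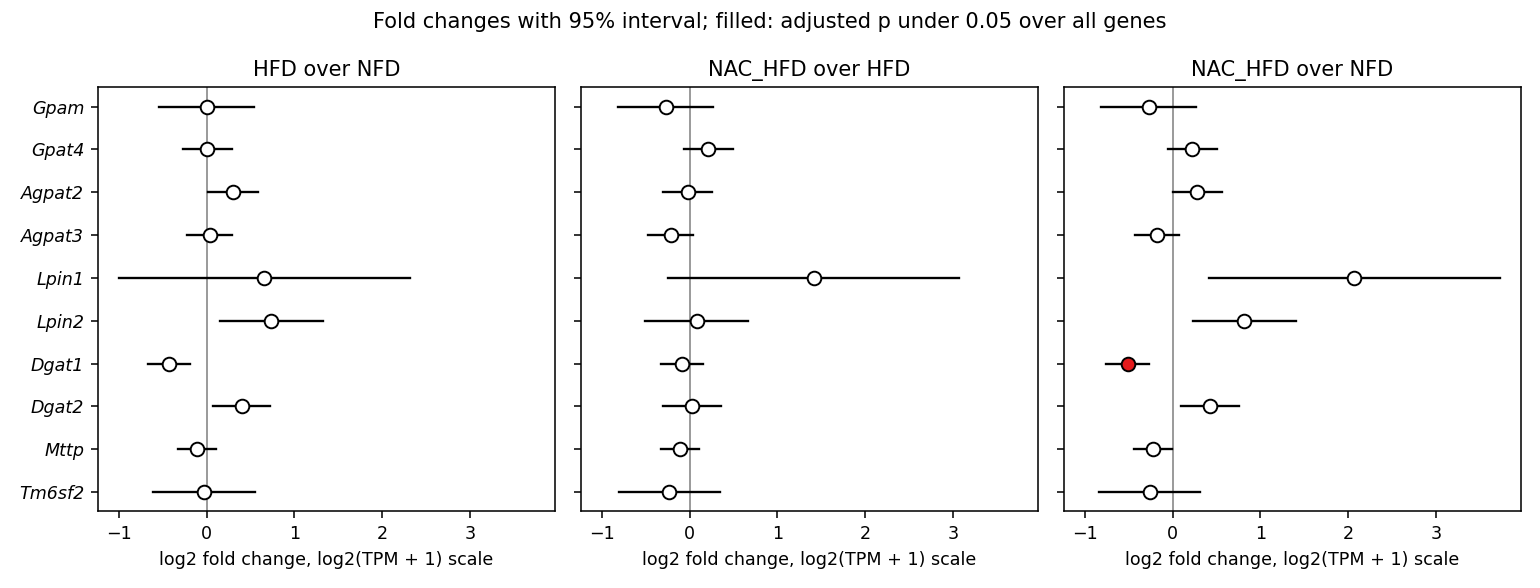
Log2 fold change of the 10 genes in HFD over NFD, NAC_HFD over HFD and NAC_HFD over NFD, with 95% intervals from limma. A filled point passed the adjusted threshold, which only Dgat1 did (-0.51 in NAC_HFD over NFD). The interval of Lpin1 is the widest in each panel.

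The 2 GPAT genes lay at similar levels in all groups. Gpam (ENSMUSG00000024978, chr19:55067635-55127319), the mitochondrial GPAT, had 38.7, 30.0, 65.8 and 60.9 TPM in NAC_HFD, 60.7, 48.1, 58.0 and 59.0 TPM in HFD and 52.6, 40.1, 82.2 and 57.9 TPM in NFD. NAC_HFD libraries 1 and 2 were the lowest of all 12 and the other NAC_HFD libraries were above every HFD library, so the groups overlapped. Its log2 fold change was -0.27 for NAC_HFD minus HFD (SE 0.25, limma adjusted p = 0.622), and between -0.43 and -0.064 with 1 library left out.

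Gpat4 (ENSMUSG00000031545, chr8:23171265-23208453), a GPAT of the endoplasmic reticulum, averaged 86.5 ± 12.7 TPM in NAC_HFD, 74.0 ± 6.33 TPM in HFD and 74.1 ± 11.8 TPM in NFD (SD, n = 4 each). The log2 fold change was 0.21 for NAC_HFD minus HFD (SE 0.13, limma adjusted p = 0.430). Over all libraries, 46.9% of its TPM came from transcripts that the deposited tables class as lncRNA. This noncoding sum was 40.7, 46.8, 43.0 and 48.2 TPM in NAC_HFD, against 32.5, 31.4, 35.6 and 33.3 TPM in HFD. NFD had 35.8, 33.9, 27.1 and 29.6 TPM. Every NAC_HFD library was above every HFD and NFD library in this sum, which was picked out after its values were seen and was not tested. The mRNA sum showed no such order, at 41.8 ± 12.5 TPM in NAC_HFD, 40.8 ± 6.29 TPM in HFD and 42.5 ± 9.53 TPM in NFD (NAC_HFD minus HFD -0.0032, SE 0.21, limma adjusted p = 0.998).

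Of the AGPATs, Agpat2 (ENSMUSG00000026922, chr2:26593057-26604417), the enzyme mutated in a human congenital lipodystrophy, had 87.95, 58.0, 64.4 and 67.2 TPM in NAC_HFD, 75.9, 68.3, 61.6 and 73.6 TPM in HFD and 51.7, 67.1, 57.7 and 50.1 TPM in NFD. The log2 fold changes were 0.28 for NAC_HFD minus NFD and 0.30 for HFD minus NFD (SE 0.13 each, limma adjusted p = 0.222 and 0.230). Of the HFD libraries, 3 lay above every NFD library. Without NAC_HFD 1, NAC_HFD minus NFD was 0.16.

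Agpat3 (ENSMUSG00000001211, chr10:78269174-78352497), which makes phosphatidic acid and polyunsaturated phospholipids, had 81.6, 73.9, 86.2 and 92.0 TPM in NAC_HFD and 101, 94.1, 93.6 and 98.1 TPM in HFD. NFD had 81.9, 85.8, 122 and 92.0 TPM. Each NAC_HFD library was below each HFD library, by a narrow margin. NAC_HFD 1 and 2 also lay below every NFD library, and NAC_HFD 3 and 4 inside the NFD range. The log2 fold change was -0.21 for NAC_HFD minus HFD (SE 0.12, limma adjusted p = 0.379). In mRNA sums, looked at after the data were seen, NAC_HFD 4 (89.5 TPM) lay above HFD 3 (87.3 TPM), so these groups overlapped. The top mRNA, ENSMUST00000105387, averaged 32.5 ± 1.76 TPM in NAC_HFD, 41.6 ± 2.88 TPM in HFD and 45.4 ± 12.6 TPM in NFD. Its NAC_HFD libraries lay below all others. It did not pass (NAC_HFD minus HFD -0.35, limma adjusted p = 0.396, and NAC_HFD minus NFD -0.44, limma adjusted p = 0.166).

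Lpin1 (ENSMUSG00000020593, chr12:16535669-16653903) encodes lipin 1, a phosphatidate phosphatase that also acts as a transcriptional co-activator in liver and is known as a fasting-induced gene. It had 250.4, 285, 251 and 334 TPM in NAC_HFD. HFD had 43.1, 97.3, 227 and 121 TPM, and NFD had 121, 129.7, 11.4 and 97.85 TPM. All NAC_HFD libraries lay above all others, within a narrow range, whereas HFD spread widely and NFD 3 was far below the rest. The means were 280 ± 39.3 TPM in NAC_HFD, 122 ± 77.1 TPM in HFD and 89.9 ± 54.0 TPM in NFD (SD, n = 4 each). NAC_HFD was thus at 2.29 times the HFD mean and 3.12 times the NFD mean.

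Against this spread no Lpin1 comparison passed limma. The log2 fold change was 1.41 for NAC_HFD minus HFD (SE 0.74, adjusted p = 0.371), 2.07 for NAC_HFD minus NFD (SE 0.74, adjusted p = 0.136) and 0.66 for HFD minus NFD (SE 0.74, adjusted p = 0.680). Without NFD 3 these became 1.41 (SE 0.40, adjusted p = 0.127), 1.26 (SE 0.43, adjusted p = 0.141) and -0.15 (SE 0.43, adjusted p = 0.891), so the direction for the diet rested on that library.

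The 2 abundant mRNAs of Lpin1 showed the same order of group means. The top one, ENSMUST00000067124, averaged 103 ± 17.8 TPM in NAC_HFD, 45.2 ± 28.2 TPM in HFD and 33.1 ± 20.5 TPM in NFD. The next mRNA, ENSMUST00000222989, averaged 79.0 ± 13.5, 32.0 ± 22.2 and 23.7 ± 13.5 TPM in these groups. The second most abundant transcript of the gene was noncoding, NONMMUT013500.2, with 70.3, 82.5, 53.4 and 81.1 TPM in NAC_HFD, 10.8, 30.4, 69.9 and 35.6 TPM in HFD and 37.8, 40.9, 2.66 and 27.1 TPM in NFD. Here HFD 3 lay above NAC_HFD 3, so these groups overlapped. Across Lpin1 the noncoding share was 31.6% in NAC_HFD, 32.6% in HFD and 32.5% in NFD.

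A minor Lpin1 mRNA, ENSMUST00000221297, had 1.16, 2.51, 2.60 and 1.61 TPM in NAC_HFD, 0, 0.31, 0.54 and 0.40 TPM in HFD and 0.25, 0, 0.59 and 0.30 TPM in NFD. It met the filter through the 4 NAC_HFD libraries alone, so it had to differ and its test is given only as a description. NAC_HFD minus NFD was 1.2 (SE 0.23, limma adjusted p = 0.0300 over 18183 mRNA transcripts), but with no filter the adjusted p was 0.0684, and without any 1 NAC_HFD library it was no longer tested. Without NFD 1 or NFD 2 the adjusted p was 0.0724 or 0.0578. No other mRNA transcript of the 26 tested for the 10 genes had an adjusted p under 0.05 in NAC_HFD minus NFD, and none did in HFD minus NFD or NAC_HFD minus HFD. Of all mRNA transcripts 1.41%, 0.621% and 0.0055% did in these comparisons, and nothing is read from the members' count.

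The library with low Lpin1, NFD 3, also stood apart in genes of feeding and the clock. It had 5.10 TPM of G6pc, the glucose-6-phosphatase of fasting, against 25.5 to 225 TPM in the other NFD libraries. Per1, a clock gene, was at 10.97 TPM in it, the lowest of all 12 libraries. Tat, a glucocorticoid-induced enzyme, was at 815 TPM in it, the highest of all 12. The 9 feeding genes summed to 1581 to 2763 TPM in NAC_HFD, 1728 to 2394 TPM in HFD and 1154 to 2321 TPM in NFD, and the 11 clock genes to 219.7 to 365, 271 to 324 and 306 to 374 TPM, so both sums overlapped between groups. The part of feeding state or hour of sampling in the Lpin1 levels was not tested.

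Lpin2 (ENSMUSG00000024052, chr17:71183532-71249818) encodes lipin 2, the other main hepatic lipin. It had 144, 105, 339 and 167 TPM in NAC_HFD, 145.3, 145.1, 195 and 168 TPM in HFD and 93.4, 109, 91.7 and 94.3 TPM in NFD. Each HFD library was higher than each NFD library, as were 3 of the 4 NAC_HFD libraries, with NAC_HFD 3 far above and NAC_HFD 2 inside the NFD range. HFD averaged 163 ± 23.8 TPM, against 97.0 ± 7.81 TPM in NFD (SD, n = 4 each; HFD minus NFD 0.74, SE 0.27, limma adjusted p = 0.165). NAC_HFD averaged 189 ± 103 TPM (NAC_HFD minus NFD 0.82, SE 0.27, limma adjusted p = 0.0992). Without NAC_HFD 3, whose value widens the shared spread, Lpin2 passed for HFD minus NFD (adjusted p = 0.0199). NAC_HFD minus NFD was 0.49 (adjusted p = 0.108) without NAC_HFD 3, and passed without NAC_HFD 2 (1.05, adjusted p = 0.0311). NAC_HFD minus HFD was 0.08 (SE 0.27, limma adjusted p = 0.915), and -0.25 without NAC_HFD 3.

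Coding and noncoding transcripts of Lpin2 behaved differently in NAC_HFD 3. Its 8 noncoding transcripts summed to 210.3 TPM there, or 62.1% of the gene, and to 44.9 to 57.0 TPM in the other NAC_HFD libraries. They summed to 70.6 to 82.7 TPM in HFD and 41.5 to 59.3 TPM in NFD. The mRNA sum was 88.9, 60.5, 129 and 110.1 TPM in NAC_HFD, 71.1, 74.5, 112 and 95.9 TPM in HFD and 52.0, 49.3, 36.4 and 50.1 TPM in NFD. In this sum every NAC_HFD and every HFD library lay above every NFD library.

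Counted as the mRNA sum alone, a choice made after the data were seen, Lpin2 rose in both groups on the high fat diet. The log2 fold change was 0.89 for HFD minus NFD (SE 0.22, limma adjusted p = 0.0454) and 0.99 for NAC_HFD minus NFD (SE 0.22, limma adjusted p = 0.0270). Of all genes counted this way, 2.84% and 3.77% passed in these comparisons. NAC_HFD minus HFD was 0.10 (SE 0.22, limma adjusted p = 0.873). The top mRNA, ENSMUST00000129635, averaged 69.6 ± 19.8 TPM in NAC_HFD, 65.2 ± 15.6 TPM in HFD and 34.2 ± 5.97 TPM in NFD. It did not pass over all mRNA transcripts (NAC_HFD minus NFD 0.98, limma adjusted p = 0.0600; HFD minus NFD 0.90, limma adjusted p = 0.0952).

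**Figure D3:**
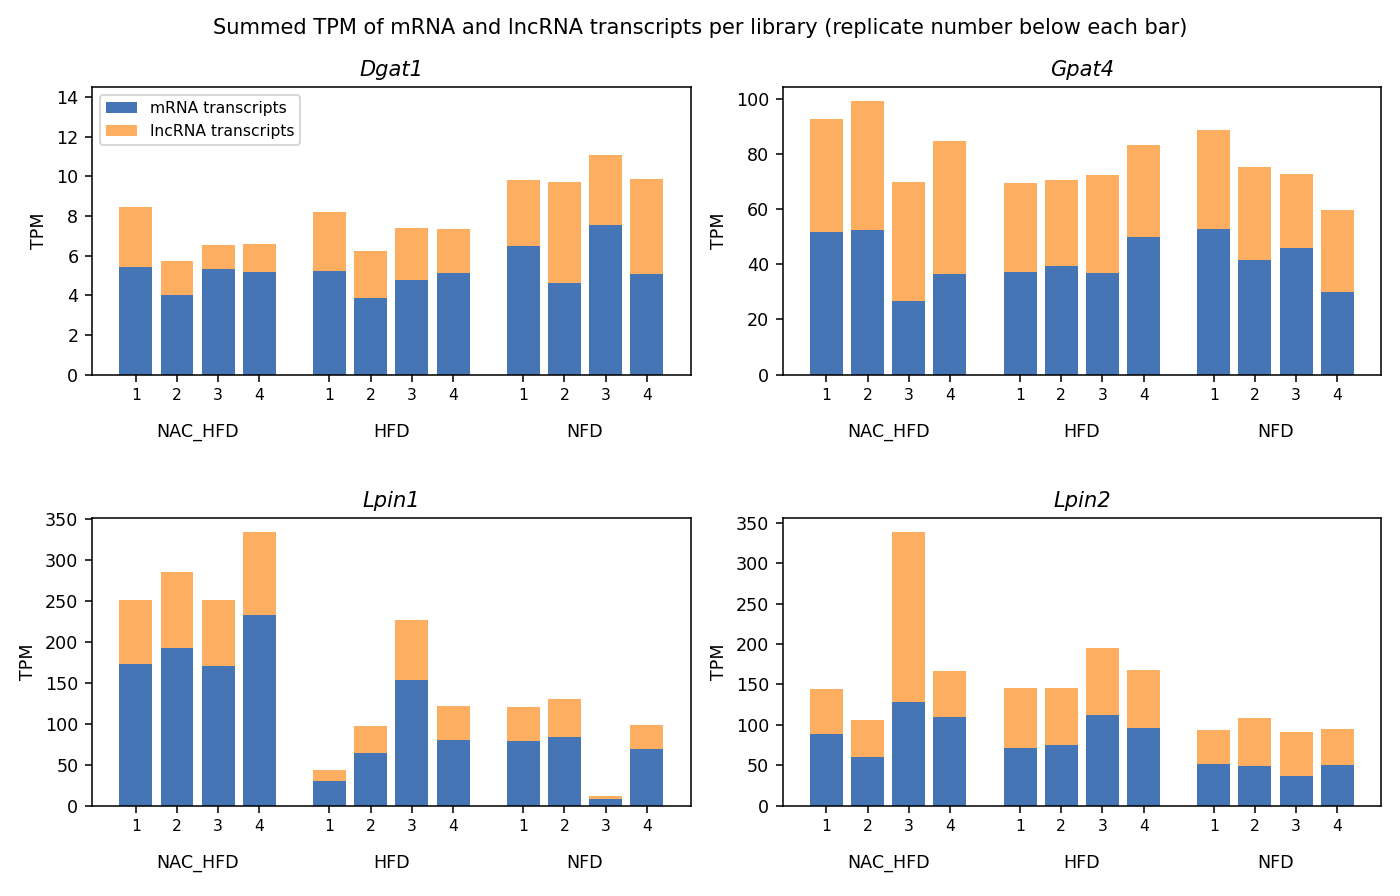
TPM per library of Dgat1, Gpat4, Lpin1 and Lpin2, each bar split into mRNA and lncRNA transcripts of the gene, with NAC_HFD, HFD and NFD libraries from left to right. The noncoding part of Lpin2 stands out in NAC_HFD 3 (210.3 TPM), and that of Dgat1 is tallest in NFD (3.32 to 5.09 TPM).

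Dgat1 (ENSMUSG00000022555, chr15:76502012-76512021), a DGAT that re-esterifies incoming fatty acids, had 8.47, 5.73, 6.56 and 6.62 TPM in NAC_HFD. HFD had 8.20, 6.26, 7.38 and 7.36 TPM, and NFD had 9.82, 9.71, 11.1 and 9.90 TPM. All 8 libraries on the high fat diet lay below all 4 NFD libraries. Dgat1 fell to 6.845 ± 1.16 TPM in NAC_HFD, against 10.1 ± 0.64 TPM in NFD (SD, n = 4 each; log2 fold change -0.51, SE 0.11, limma adjusted p = 0.0212). HFD averaged 7.30 ± 0.80 TPM, and HFD minus NFD was -0.43 (SE 0.11, limma adjusted p = 0.0574). NAC_HFD minus HFD was -0.09 (SE 0.11, limma adjusted p = 0.735, 95% interval -0.33 to 0.15).

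The Dgat1 call depended on noncoding transcripts. Its single mRNA, ENSMUST00000023214, had 5.41, 4.01, 5.34 and 5.20 TPM in NAC_HFD, 5.22, 3.88, 4.78 and 5.14 TPM in HFD and 6.50, 4.63, 7.53 and 5.10 TPM in NFD, with all groups overlapping. In the mRNA alone NAC_HFD minus NFD was -0.20 (SE 0.14, limma adjusted p = 0.450). The 7 noncoding transcripts summed to 1.85 ± 0.83 TPM in NAC_HFD, 2.54 ± 0.33 TPM in HFD and 4.18 ± 0.88 TPM in NFD, and every library on the high fat diet lay below every NFD library. This noncoding sum was looked at after the data were seen and was not tested. The gene-level call was also lost without NFD 3 (adjusted p = 0.0552), NAC_HFD 3 (0.0554) or NAC_HFD 4 (0.0587), and when only the 2 groups were fitted (0.0558).

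Dgat2 (ENSMUSG00000030747, chr7:99153663-99182713), the DGAT of newly made fatty acids, had 202, 188, 229 and 254 TPM in NAC_HFD, 208, 233, 205 and 207 TPM in HFD and 171, 216, 152 and 119.8 TPM in NFD. NFD 2 reached into the range of both other groups, and the remaining NFD libraries were below all others. The log2 fold changes were 0.42 for NAC_HFD minus NFD and 0.40 for HFD minus NFD (SE 0.15 each, limma adjusted p = 0.120 and 0.176). Without NFD 2, NAC_HFD minus NFD was 0.57 (adjusted p = 0.0365). Without NFD 4, the lowest library, it was 0.28 (adjusted p = 0.218), and HFD minus NFD was 0.26 (adjusted p = 0.322). Almost all of Dgat2 was its mRNA ENSMUST00000033001, 96.8% in NAC_HFD, 94.3% in HFD and 91.2% in NFD.

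A ratio within a library does not depend on how that library was scaled. Dgat2 stood at 23.8, 32.7, 34.9 and 38.4 times Dgat1 in NAC_HFD, 25.3, 37.2, 27.8 and 28.1 times in HFD and 17.4, 22.3, 13.7 and 12.1 times in NFD. Every library on the high fat diet lay above every NFD library. The difference of mean log2 ratios was 1.0 for NAC_HFD minus NFD and 0.88 for HFD minus NFD, each at exact permutation p = 0.0286, the smallest that 4 against 4 libraries can give. Over the 15 ratio tests the adjusted p was 0.107 for both, so neither passed. In mRNA sums alone, a choice made after the data were seen, the ratio was 36.1, 44.9, 41.6 and 47.7 in NAC_HFD, 37.6, 56.5, 39.6 and 38.8 in HFD and 23.9, 42.1, 19.4 and 20.9 in NFD. NFD 2 then lay inside the range of both other groups, and the differences of mean log2 ratios were 0.74 for NAC_HFD minus NFD (exact permutation p = 0.0857) and 0.75 for HFD minus NFD (exact permutation p = 0.114). Lpin1 over Lpin2 had a mean log2 ratio of 0.70 ± 0.80 in NAC_HFD and -0.65 ± 0.82 in HFD (SD, n = 4 each; exact permutation p = 0.0571, adjusted 0.171).

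Mttp (ENSMUSG00000028158, chr3:138089855-138143418), which encodes the large subunit of the microsomal triglyceride transfer protein, had 103, 89.1, 106 and 112 TPM in NAC_HFD. HFD had 106, 123, 104 and 108 TPM, and NFD had 121, 130, 123 and 104.2 TPM. NAC_HFD 2 was the lowest of all 12 libraries, and the groups overlapped. NAC_HFD minus NFD was -0.22 (SE 0.10, limma adjusted p = 0.209) and HFD minus NFD -0.11 (SE 0.10, limma adjusted p = 0.569). A minor mRNA of Mttp, ENSMUST00000098580, picked out after its values were seen, had 2.70 to 3.53 TPM in HFD and 1.62 to 2.39 TPM in NFD, without overlap (HFD minus NFD 0.46, SE 0.13, limma adjusted p = 0.118).

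Apob, whose protein accepts the lipid that Mttp transfers, averaged 1886 ± 191 TPM in NAC_HFD, 1893 ± 118 TPM in HFD and 1904 ± 217 TPM in NFD. The mean log2 ratio of Mttp to Apob was -4.20 ± 0.03 in NAC_HFD, -4.10 ± 0.07 in HFD and -3.99 ± 0.08 in NFD (SD, n = 4 each). Each NAC_HFD library was below each library of the other groups in this ratio. Against HFD the margin was very narrow, with a log2 ratio of -4.182 in NAC_HFD 1 and -4.176 in HFD 4. The differences were -0.10 for NAC_HFD minus HFD and -0.21 for NAC_HFD minus NFD, each at exact permutation p = 0.0286 and adjusted p = 0.107, so neither passed.

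Tm6sf2 (ENSMUSG00000036151, chr8:70072924-70080066) encodes a membrane protein needed for full lipid loading of VLDL. It had 8.87, 12.03, 19.3 and 21.7 TPM in NAC_HFD, 19.3, 22.4, 12.7 and 16.2 TPM in HFD and 17.0, 23.0, 19.4 and 12.8 TPM in NFD. NAC_HFD 1 and 2 were the lowest of all 12 libraries, while NAC_HFD 3 and 4 lay among the higher values. NAC_HFD minus HFD was -0.23 (SE 0.26, limma adjusted p = 0.699), or -0.011 without NAC_HFD 1 and -0.41 without NAC_HFD 4.

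Other genes of the pathway were taken as lists. Of 17 further genes of triglyceride synthesis, 13 were tested. In HFD against NFD 2 rose and none fell, in NAC_HFD against HFD none passed, and in NAC_HFD against NFD 1 fell, beside 2.78%, 0% and 5.28% of all genes called in either direction. Of the 2 that rose, Mogat1 met the filter through HFD alone, so its call is given only as a description. The median log2 fold changes were 0.21, -0.28 and -0.02, beside 0.01, -0.08 and -0.07 over all genes. Gpat2, Agpat4, Mogat2 and Cds1 were under the filter.

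Mogat1, a monoacylglycerol acyltransferase that makes diacylglycerol by another route, had 0.92, 0.31, 0.91 and 0.88 TPM in NAC_HFD, 4.2, 2.65, 1.34 and 3.41 TPM in HFD and 0.35, 0.22, 0.17 and 0.39 TPM in NFD. Mogat1 reached 1 TPM in the 4 HFD libraries alone and so met the filter only through the group where it is high. Its tests are therefore given only as a description. HFD minus NFD was 1.55 (SE 0.21, limma adjusted p = 0.0028), and the limma adjusted p was 0.0119 in the fit with no filter. Without any 1 HFD library Mogat1 was no longer tested. Each HFD library was higher than each NAC_HFD library, and NAC_HFD minus HFD was -1.11 (SE 0.21, limma adjusted p = 0.0515, or 0.0459 without NAC_HFD 1 and 0.0978 with no filter).

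Gpat3, a further GPAT of the endoplasmic reticulum, had 2.06, 1.49, 2.78 and 2.34 TPM in NAC_HFD, 6.51, 4.31, 2.87 and 4.78 TPM in HFD and 1.76, 1.38, 1.99 and 2.79 TPM in NFD. It rose in HFD (HFD minus NFD 0.90, SE 0.20, limma adjusted p = 0.0286), and NAC_HFD minus HFD was -0.80 (SE 0.20, limma adjusted p = 0.0880). The Gpat3 call was lost without any 1 of HFD 1, 2 or 4 or of NFD 1, 2 or 3 (adjusted p 0.0519 to 0.0970). Of the marker sums given above, the Kupffer cell sums reached highest in HFD but overlapped between groups. The adipocyte sums were higher in HFD, where Cfd was higher and Fabp4 and Lipe overlapped the other groups. The part of these cells in Mogat1 and Gpat3 was not tested.

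Plpp2, a phospholipid phosphatase, fell to 4.14 ± 0.83 TPM in NAC_HFD, against 6.83 ± 0.87 TPM in NFD (log2 fold change -0.61, SE 0.14, limma adjusted p = 0.0246). Its call was lost without NFD 1, NFD 3, NAC_HFD 2 or NAC_HFD 3 (adjusted p 0.0517 to 0.0670). Agpat1, another AGPAT, averaged 6.33 ± 1.31 TPM in NAC_HFD, 9.20 ± 1.09 TPM in HFD and 8.16 ± 0.39 TPM in NFD (NAC_HFD minus NFD -0.34, SE 0.13, limma adjusted p = 0.127).

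All 21 further genes of VLDL assembly and secretion were tested, and none passed in any comparison by limma, beside 2.78% of all genes for HFD minus NFD, 0% for NAC_HFD minus HFD and 5.28% for NAC_HFD minus NFD. Unadjusted p was under 0.05 for 4, 4 and 3 of the 21 in these comparisons, beside 19.1%, 16.4% and 22.6% of all genes. Their median log2 fold changes were 0.11 for HFD minus NFD, -0.06 for NAC_HFD minus HFD and 0.07 for NAC_HFD minus NFD, beside 0.01, -0.08 and -0.07 over all genes. Mia2, a cargo receptor of the endoplasmic reticulum exit site, averaged 186.3 ± 17.3 TPM in NAC_HFD, 186.6 ± 15.7 TPM in HFD and 149 ± 5.39 TPM in NFD. Every library on the high fat diet was above every NFD library (NAC_HFD minus NFD 0.31, SE 0.09, limma adjusted p = 0.0689; HFD minus NFD 0.32, SE 0.09, limma adjusted p = 0.0882). Sar1b, the GTPase of the vesicles that carry large lipoproteins, averaged 105 ± 5.79 TPM in HFD and 83.5 ± 7.60 TPM in NFD (0.33, SE 0.11, limma adjusted p = 0.119).

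P4hb, the protein disulfide isomerase that is the small subunit of the transfer protein, had 444, 371, 339 and 391 TPM in NAC_HFD and 521, 547, 471 and 500.4 TPM in HFD. Every NAC_HFD library was below every HFD library, and NAC_HFD minus HFD was -0.40 (SE 0.13, limma adjusted p = 0.175). Smlr1, a membrane protein of VLDL secretion, averaged 15.1 ± 0.68 TPM in NAC_HFD, 20.5 ± 4.42 TPM in HFD and 19.6 ± 2.00 TPM in NFD (NAC_HFD minus HFD -0.39, limma adjusted p = 0.174; NAC_HFD minus NFD -0.35, limma adjusted p = 0.127).

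**Figure D4:**
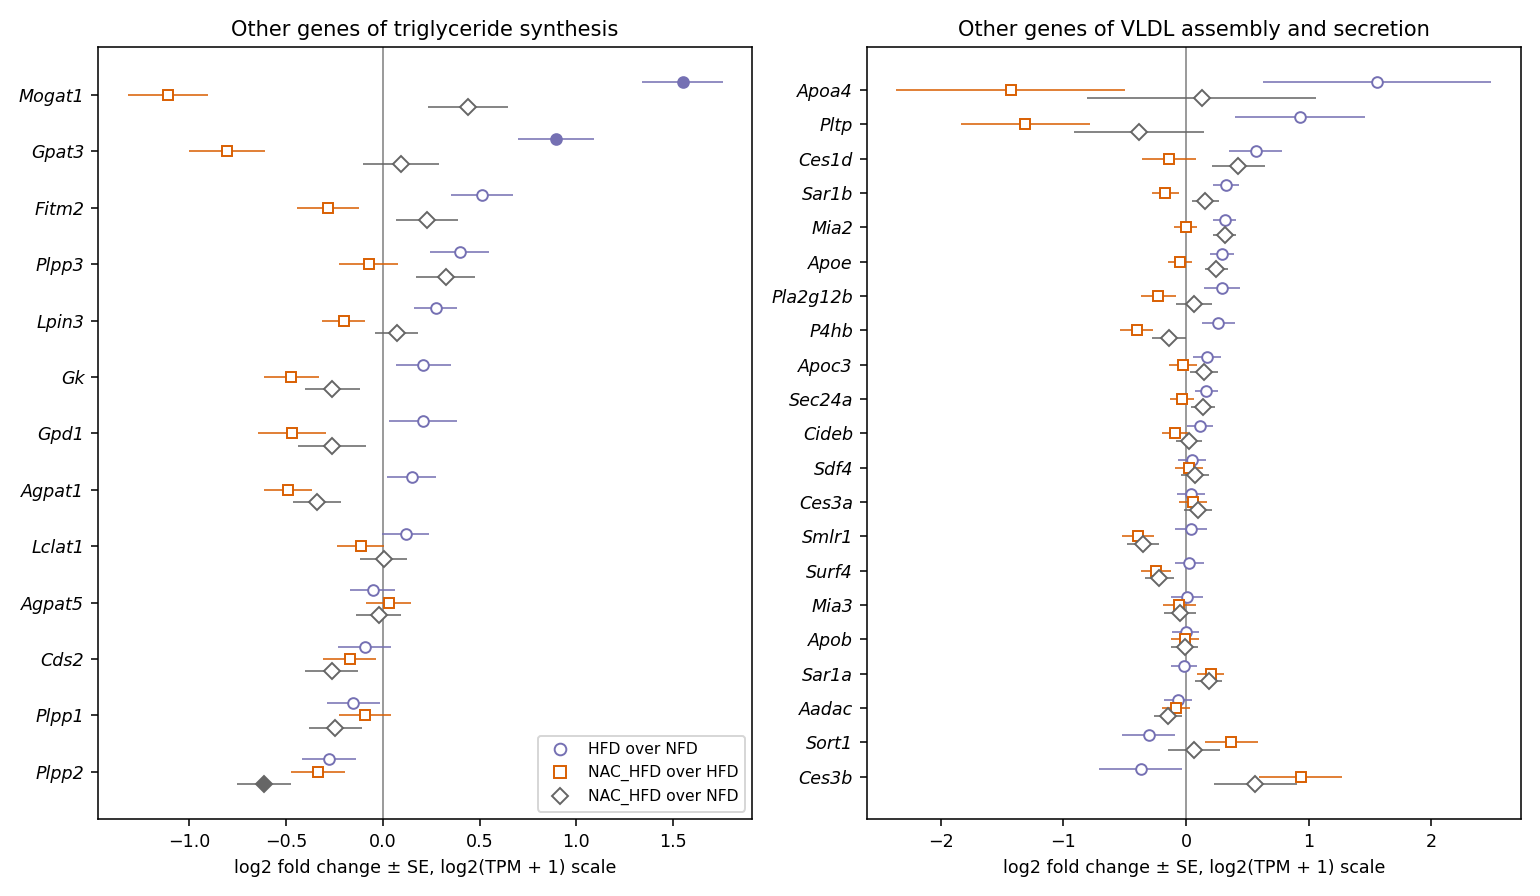
Log2 fold change ± SE of the other genes of triglyceride synthesis and of VLDL assembly and secretion in the 3 comparisons, from limma. Filled points passed the adjusted threshold: Mogat1 (1.55) and Gpat3 (0.90) in HFD over NFD, and Plpp2 (-0.61) in NAC_HFD over NFD. Mogat1 met the filter through HFD alone, so its filled point is only a description.

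Of 17 transcription factors and co-regulators known to act on these genes, 16 were tested (Nr2f1 was under the filter). In HFD against NFD 1 rose, in NAC_HFD against HFD none passed, in NAC_HFD against NFD 2 rose, and none fell, beside 2.78%, 0% and 5.28% of all genes called in either direction. The median log2 fold changes were 0.12, -0.03 and 0.0041, beside 0.01, -0.08 and -0.07 over all genes. Foxo1, a forkhead factor held back by insulin that acts on Mttp, had 11.5, 12.9, 15.75 and 16.4 TPM in NAC_HFD, 9.38, 10.4, 11.6 and 11.5 TPM in HFD and 6.90, 8.05, 5.32 and 6.23 TPM in NFD. No NFD library reached any library on the high fat diet. Foxo1 rose in NAC_HFD against NFD (0.99, SE 0.13, limma adjusted p = 0.0033) and in HFD against NFD (0.63, SE 0.13, limma adjusted p = 0.0235).

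The HFD minus NFD call of Foxo1 was lost without HFD 2, HFD 4, NFD 1, NFD 3 or NFD 4 (adjusted p 0.0511 to 0.0798). Cebpb, a leucine zipper factor of liver, rose to 26.0 ± 9.37 TPM in NAC_HFD, against 12.5 ± 4.11 TPM in NFD (0.99, SE 0.23, limma adjusted p = 0.0306). That call was lost without NAC_HFD 2, 3 or 4 or NFD 2, 3 or 4 (adjusted p 0.0503 to 0.0642). Ppara, the receptor that drives fatty acid oxidation, averaged 107 ± 7.29 TPM in HFD and 70.2 ± 15.4 TPM in NFD (0.63, SE 0.17, limma adjusted p = 0.0675). Foxa2 averaged 24.3 ± 6.18 TPM in NAC_HFD and 12.6 ± 4.26 TPM in HFD (0.91, SE 0.31, limma adjusted p = 0.186).

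The authors' deposited tables of transcripts list 9 transcripts of the 10 genes, 3 of them with an adjusted p under 0.05. All 9 have an unadjusted p of the authors under 0.05 and a log2 fold change of at least 1 in size. The share over all transcripts listed there was not taken, so nothing is read from this count. In the authors' deposited table for NAC_HFD over HFD, the noncoding Lpin1 transcript ENSMUST00000223129 has a log2 fold change of 2.30 (adjusted p = 0.00799). There too the noncoding Gpat4 transcript ENSMUST00000210782 has a log2 fold change of 1.0 in the authors' deposited table (adjusted p = 0.0446). For HFD over NFD, the authors' deposited table gives the Lpin2 mRNA ENSMUST00000126681 a log2 fold change of 1.05 (adjusted p = 0.0117). In the TPM tables the first had 7.77, 10.7, 27.6 and 20.2 TPM in NAC_HFD, against 2.13, 2.48, 3.54 and 5.87 TPM in HFD. The Lpin2 mRNA had 15.8, 15.5, 23.7 and 21.2 TPM in HFD, against 10.5, 11.1, 7.04 and 8.86 TPM in NFD. In both cases the groups did not overlap. The Gpat4 transcript had 3.96, 7.99, 7.45 and 8.76 TPM in NAC_HFD, against 3.72, 3.79, 3.96 and 3.68 TPM in HFD, so NAC_HFD 1 and HFD 3 tied. The limma fit gave the Lpin2 mRNA an adjusted p of 0.107.

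Among the 45 pairs of the 10 genes, no Pearson correlation over the 12 libraries passed after adjustment. The highest in size was Gpam with Agpat3 (r = 0.82, permutation p = 0.00147, adjusted 0.0533; rho = 0.68, permutation p = 0.0186, adjusted 0.209). It was 0.80 for deviations from the group means and 0.69 without NAC_HFD 1 and 2, the libraries farthest from the median of Gpam. Agpat3 with Lpin1 had r = -0.81 (permutation p = 0.00237, adjusted 0.0533) and rho = -0.70 (permutation p = 0.0137, adjusted 0.206), with -0.79 for deviations from the group means, but r = -0.50 without NFD 3 and NAC_HFD 2, so much of it rested on those libraries. Mttp with Tm6sf2 had r = 0.71 (permutation p = 0.0101, adjusted 0.152) and rho = 0.88 (permutation p = 0.00034, adjusted 0.0153), with r = 0.72 for deviations from the group means and 0.63 without NFD 2 and NAC_HFD 2. For deviations from the group means 1 of the 45 pairs passed, Dgat2 with Mttp (r = 0.85, permutation p = 0.00057, adjusted 0.0256), named after its values were seen. Over the 12 libraries without centring this pair had r = 0.09 (permutation p = 0.782, adjusted 0.880) and rho = 0.31 (permutation p = 0.330, adjusted 0.630), and r = 0.23 without NFD 3 and 4.

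The tested gene most like each of the 10 over the 12 libraries, by Pearson r on log2(TPM + 1), was picked from all 11376 and is given as a description. It was Pex16 for Gpam (r = 0.96), Ranbp9 for Gpat4 (r = 0.87), Slc50a1 for Agpat2 (r = 0.90) and Abcb8 for Agpat3 (r = 0.96). It was Caln1 for Lpin1 (r = 0.92), Ell2 for Lpin2 (r = 0.92), Atg4d for Dgat1 (r = 0.92) and Sqor for Dgat2 (r = 0.95). For the lipoprotein genes it was Eno1 for Mttp (r = 0.94) and Smoc1 for Tm6sf2 (r = 0.90).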

How the data were processed

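Liver RNA of 12 samples, 4 per group, was analysed, with groups and replicate numbers from the sample labels. Per the submitters' processing notes, fastp, HISAT and RSEM were used with GRCm38 (versions and settings: not given in the sources used here). Deposited gene, mRNA and lncRNA tables hold TPM made by the authors. The mRNA and lncRNA TPM of a library add to a fixed total, and a gene's TPM is the sum of its mRNA and lncRNA transcripts. The sources used here do not say how reads were divided between overlapping coding and noncoding transcripts. The authors' deposited comparison tables hold ratios, log2 fold changes and p-values, and no fit used them. Gene positions are those of GRCm38.

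Genes with at least 1 TPM in at least 4 libraries (11376 of 19252) were put on log2(TPM + 1), which understates changes of low genes, and fitted with limma 3.58.1 in R 4.3.3 (3 group means, trend and robust moderation, two-sided). The same was done for 18183 of 53634 mRNA transcripts. Single ratios were tested by exact two-sided permutation and correlations by 100000 permutations. The fit was tested on simulated data.

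The 10 genes and the lists were chosen with earlier results of these data known, and list counts are descriptions. All 10 are named, as are list genes that passed plus the 2 lowest p of each list and comparison. Same-numbered libraries did not deviate together (12 pairs, r -0.17 to 0.18), so the numbers were not taken as pairs. Alternatives were pseudocount, filter, scaling, moderation, block, groups fitted and leaving out each library. Scoring genes by mRNA alone was added after the data were seen.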

Additional observations from a re-analysis of the deposited data

Results flagged for a closer look

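In 5 of 45 groups of 4 libraries, 1 library lay farther from the nearest other library, relative to the range, than Dixon's 95% critical value on the log2 scale. Chance flags about 1 in 20 groups. In NFD, Lpin1 was at 11.4 TPM in NFD 3, and the log2 ratio of Lpin1 to Lpin2 was -3.01 in the same library. Dgat1 in NFD was highest in NFD 3, at 11.1 TPM. Lpin2 in NFD was highest in NFD 2, at 109 TPM. Dgat2 in HFD was highest in HFD 2, at 233 TPM.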

How the results depend on the processing

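Leaving out 1 library at a time moved the number of the 10 genes called between 0 and 1 for HFD minus NFD (1 without NAC_HFD 1, 2 or 3) and between 0 and 2 for NAC_HFD minus NFD (0 without NFD 3, NAC_HFD 3 or NAC_HFD 4; 2 without NFD 2 or NAC_HFD 2). For NAC_HFD minus HFD it stayed at 0 under all 22 alternatives. The number of mRNA transcripts called ranged from 0 to 1 for HFD minus NFD and from 0 to 2 for NAC_HFD minus NFD, where ENSMUST00000221297 is no longer tested once a NAC_HFD library is left out. Fitting only the 2 groups compared gave 2 genes called for HFD minus NFD (Dgat1 at adjusted p = 0.0463 and Lpin2 at 0.0103) and 0 for NAC_HFD minus NFD, with fewer libraries in the estimate of the spread, and mRNA sums gave 1 for HFD minus NFD. Dgat1 also passed for HFD minus NFD without NAC_HFD 1 (0.0376) or NAC_HFD 2 (0.0446). Transcripts called for NAC_HFD minus NFD were 0 with a pseudocount of 0.1, with no filter and with 2 groups, 2 with a filter of 5 TPM, 3 with median-of-ratios scaling and 2 with quantile normalization; the cause was not tested. With the replicate block, transcripts called for NAC_HFD minus NFD were 0, Plpp2 (adjusted p = 0.0551) and Cebpb (0.0757) were lost, and no call of the 10 genes changed. With no filter, Gpat3 (adjusted p = 0.0679), Foxo1 for HFD minus NFD (0.0544), Plpp2 (0.0525) and Cebpb (0.0586) were lost, as were Plpp2 (0.0531) and Cebpb (0.0967) with 2 groups. Mia2 passed for NAC_HFD minus NFD with median-of-ratios (0.0177) and quantile scaling (0.0356), and Ppara for HFD minus NFD with 2 groups (0.0435).

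Directions turned for the following values. Dgat1 for NAC_HFD minus HFD was 4.77e-05 with median-of-ratios scaling, 0.0096 with quantile normalization and 0.057 as mRNA. Gpat4 for HFD minus NFD was -0.0075, -0.056, -0.026 and -0.042 with median-of-ratios, quantile, within-table rescaling and mRNA sums, and as mRNA sums -0.0032 for NAC_HFD minus HFD and -0.046 for NAC_HFD minus NFD. Agpat2 for NAC_HFD minus HFD was 0.078 with median-of-ratios and 0.071 with quantile scaling, and Agpat3 for HFD minus NFD was -0.034 with quantile scaling. As mRNA sums the log2 ratio of Dgat2 to Dgat1 was -0.0050 for NAC_HFD minus HFD, and that of Gpam to Gpat4 0.043 for HFD minus NFD. Leave-one-out ranges that crossed 0 for HFD minus NFD were -0.16 to 0.18 for Gpam, -0.090 to 0.097 for Gpat4, -0.031 to 0.16 for Agpat3, -0.15 to 1.08 for Lpin1, -0.17 to 0.11 for Tm6sf2, -0.87 to 0.31 for the log2 ratio of Lpin1 to Lpin2 and -0.18 to 0.18 for that of Gpam to Gpat4. For NAC_HFD minus HFD they were -0.051 to 0.094 for Dgat2, -0.14 to 0.057 for Agpat2, -0.25 to 0.31 for Lpin2 and -0.020 to 0.14 for the Dgat1 mRNA. Without crossing 0, Agpat2 for NAC_HFD minus NFD ranged from 0.16 to 0.36. Leave-one-out r was 0.74 to 0.89 for Gpam with Agpat3 (adjusted permutation p down to 0.0166). It was -0.87 to -0.58 for Agpat3 with Lpin1 (adjusted permutation p down to 0.0261). For Mttp with Tm6sf2 it was 0.65 to 0.77, and there the rho of 0.88 passed where r did not.

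Other scalings shifted the median of all genes by at most 0.094 on the log2 scale, but for NAC_HFD minus NFD they turned 200 higher and 401 lower calls into 371 higher and 250 lower (median-of-ratios) or 314 higher and 294 lower (quantile). With 4 libraries per group and no read depth, values near 1 TPM are the least certain.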
